A study of Rattus norvegicus with 127 samples.

Results

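Adam12 encodes a disintegrin and metalloprotease, a membrane protein also known as meltrin alpha. It is 1 of 134 genes on a custom panel for the nCounter, an instrument that counts single RNA molecules by barcoded probes, and was measured here in rat pubocaudalis, which is part of the pelvic floor. The gene was selected on its measured log2 values, for their rise after injury and again after a delayed injection of saline. Those contrasts are therefore described below without a test, and tests are given only for contrasts that did not choose it.

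All groups were of Sprague Dawley rats, and the labels name no other genotype. The 18 groups were uninjured muscle, muscle after a simulated birth injury alone (SBI) at days 1, 3, 7, 10, 31, 35 and 84, and injured muscle injected with saline or with SKM, a gel prepared from skeletal muscle extracellular matrix. Injections were given immediately, with harvest 3 or 7 days later, or after a delay, with harvest 3 days, 7 days or 8 weeks later. The labels do not give the length of the delay or the age of the rats. Delayed groups at day 3, day 7 and week 8 were set beside SBI days 31, 35 and 84, which are the injury days 28 days beyond them. Whether samples of 1 group are separate animals is not in the labels, so errors and p-values measure only the spread between these samples, which may in part be technical.

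ADAM12 carries a metalloprotease domain that can release growth factors and cut their binding proteins, and a disintegrin and cysteine-rich region through which it binds integrins and syndecans. Its cytoplasmic tail binds alpha-actinin. In mouse muscle it is low in resting adult fibres and is made by fusing myoblasts and by mesenchymal cells of injured tissue, and it serves as a marker of regenerating muscle. The rat gene lies on chromosome 1, from 198116968 to 198443680 of the GRCr8 assembly in RefSeq, a span of 326713 bases. The sequence captured by the panel's probe was not used here. In RNA from whole muscle, fewer cells that express the gene and less RNA per cell cannot be told apart.

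Of 127 deposited samples, 3 pairs shared the same recovered count for every one of the 134 genes, while their scaling factors were unlike. No other pair of samples shared more than 12 counts. Since the counts within such a pair did not differ at all, each was taken as 1 measurement and counted as 1 sample, leaving 124. The pairs were SBI day 3 replicates 6 and 7, SBI day 7 replicates 5 and 7, and SBI day 7 replicates 6 and 8. The SBI day 3 pair shows what the factor alone can do: the same 4212 Adam12 counts stand in the deposited values as 3234 and as 4613. Total counts ran from 366294 to 1824478 per sample. In the 17 samples taken latest (SBI day 84 and both week 8 groups) the median log2 value of the panel was 8.25 to 8.70, against 9.22 to 11.21 in the others. For this reason each Adam12 difference is given on the deposited scale, log2(value + 1), and on a centred scale from which the median of the panel in that sample was subtracted. A change on the centred scale is relative to the rest of the panel.

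In uninjured muscle the deposited Adam12 values of the 3 samples were 109, 154 and 315 normalised counts (mean log2 7.46 ± 0.78, SD, n = 3). At day 1 after injury they were 299, 370 and 391, and 2 of these 3 samples lay above every uninjured one. At day 3 the lowest of 8 samples was 1211.5, the median 2885 and the highest 3923 (mean log2 11.28 ± 0.63, n = 8), and no sample overlapped with uninjured muscle. On the means, Adam12 was 3.83 ± 0.51 (SE, log2) higher at day 3 than in uninjured muscle on the deposited scale, a 14.2-fold difference, and 3.73 ± 0.47 higher on the centred scale. On the deposited scale 73.9% of the panel's genes passed an adjusted p of 0.05 by limma in this contrast, from which nothing is read for Adam12 because the contrast chose it.

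The level then came down, with a wide spread. At day 7 the 6 samples ran from 211 through a median of 1257.5 to 2663 (mean log2 10.01 ± 1.43), a 12.6-fold range within 1 group. The lowest of them is the mean of the identical replicates 5 and 7. It carried only 83 Adam12 counts, and its Acta1, the alpha-actin of adult fibres, was 431920 and its Myh3, the embryonic myosin heavy chain of forming fibres, 1532. In the other 5 SBI day 7 samples Acta1 was at most 190280 and Myh3 at least 5994, while uninjured Acta1 ran from 270320 to 401980. Acta1 and Myh3 were named after their values were seen. The mean difference at day 7 from uninjured muscle was 2.55 ± 0.54, and 3.01 without that sample. At day 10 the samples stood at 257, 314 and 1236.5. Their mean was 1.41 ± 0.62 above uninjured muscle, and 0.70 without the highest sample, replicate 3.

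At the later days the group means of Adam12 lay below that of uninjured muscle. At SBI day 31 a group of 4 samples held 44.5, 45.0, 50.7 and 55.0, and the other 2 held 165 and 479. The mean log2 was 6.47 ± 1.39 (n = 6), which is 0.99 ± 0.54 below uninjured muscle. The sample at 479, replicate 1, also had the highest Adgre1 of its group, 7320 against 290 to 609 in the others. It was highest as well in the matrix genes Col1a1 (114610 against 8517.5 to 41615) and Tnc (821 against 155 to 255). Its Acta1 was the lowest of the group, 116440 against 141620 to 232840. These genes were named after their values were seen. Adgre1 encodes F4/80, a macrophage surface protein. At day 35 the 6 samples lay closer together, from 68.1 through a median of 79.3 to 146 (mean log2 6.47 ± 0.40), which is 0.98 ± 0.54 below uninjured muscle. At day 84 they ran from 19.5 through 21.8 to 23.5 (mean log2 4.49 ± 0.10), with counts of 18 to 25. The deposited difference from uninjured muscle was then -2.96 ± 0.54, but 1.77 of it is the lower median of the panel at day 84, and on the centred scale the difference was -1.19 ± 0.49. Beside these days, the summed value of 4 macrophage markers (Adgre1, Arg1, Nos2 and Ccr2, of 11 listed) was taken. It ran from 524 to 1120 in uninjured muscle, with a median of 1028. It ran from 1988 to 19590 at SBI day 1, from 2145 to 31667 at day 3 and from 1728 to 16391 at day 7. At day 10 it ran from 1103 to 3899, and at day 31 from 820 to 9847 with a median of 1173. At day 35 it ran from 842 to 2086, and at day 84, where the panel median was lower, from 163 to 394. The summed value of 12 adult fibre genes ran from 1345400 to 1504400 in uninjured muscle and from 87343 to 562360 at SBI day 3. The median of the macrophage sum was 9368 at day 1 and 4309 at day 3, with ranges that overlapped. On the centred scale the mean log2 level of the macrophage markers was 0.02 ± 1.74 (SD) at day 1 and -0.32 ± 1.09 at day 3. The centred means of Adam12 at these days were -1.52 and 0.95. None of these markers was at 0 in every sample of a group. Their part in the Adam12 values was not tested.

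**Figure D1:**
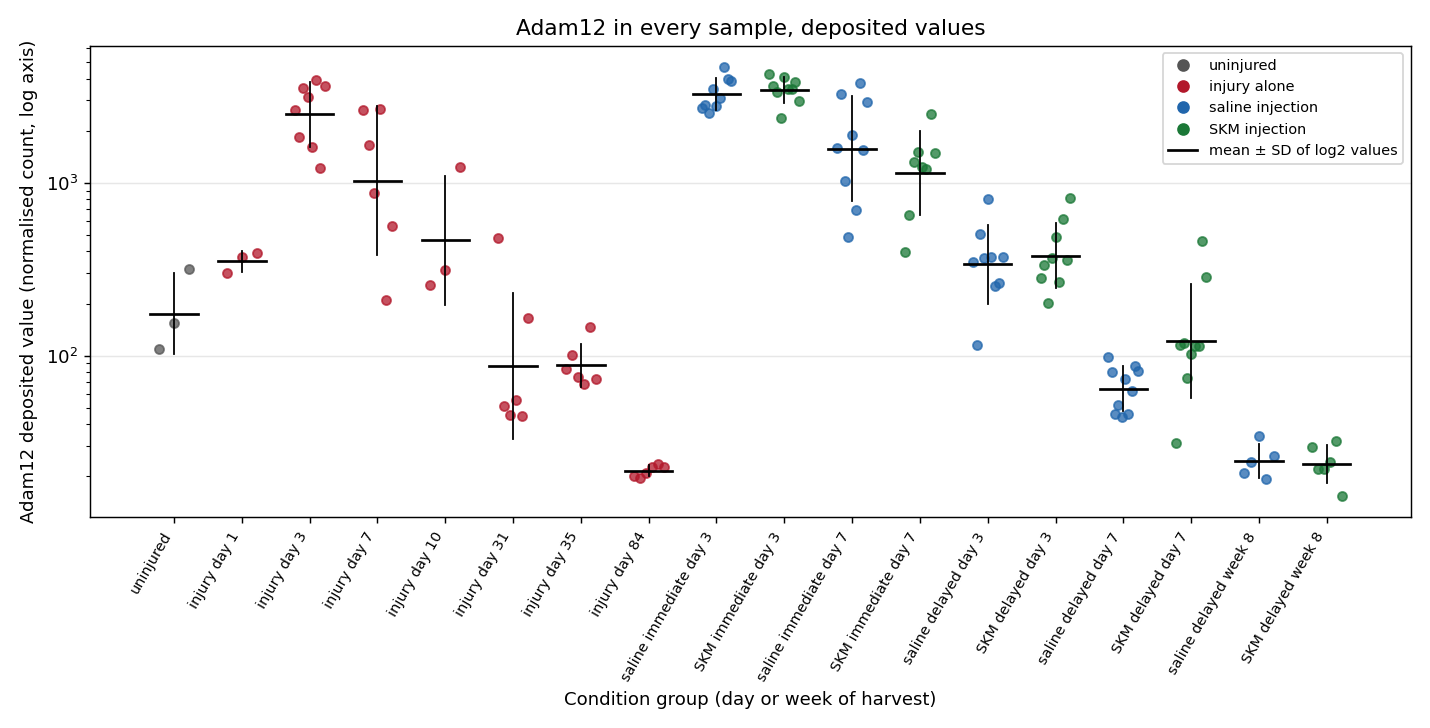
Deposited Adam12 value (normalised count, logarithmic axis) of each of the 124 samples in the 18 groups; points are samples, horizontal bars the mean and vertical bars the SD of log2 values. The SBI day 3 samples lie between 1211.5 and 3923, and the SBI day 84 samples between 19.5 and 23.5.

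At day 3 after immediate injection the saline samples ran from 2540 through a median of 3074 to 4650 (mean log2 11.67 ± 0.30, n = 9) and the SKM samples from 2362 through 3489 to 4241 (11.75 ± 0.26, n = 9). At day 7 the saline samples ran from 486 through 1597 to 3778 (10.62 ± 1.01, n = 9) and the SKM samples from 399 through 1274 to 2482 (10.15 ± 0.81, n = 8). Saline and SKM overlapped at both days, and at day 7 the values spread 7.78-fold in the saline group and 6.22-fold in the SKM group.

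After delayed injection the levels were lower, and those at day 3 lay mostly above SBI day 31. Delayed saline at day 3 ran from 115 through a median of 368 to 800 (mean log2 8.40 ± 0.76, n = 9). All 9 samples lay above the median of SBI day 31, and 2 lay above its highest sample. The means differed by 1.93 ± 0.40 on the deposited scale and by 2.02 ± 0.37 on the centred scale. Without the highest SBI day 31 sample the deposited difference was 2.42. In this contrast 2.24% of the panel's genes passed the test in either direction and 0.746%, 1 of 134, as higher, and since the contrast chose Adam12 nothing is read from that share. Delayed SKM at day 3 ran from 201 through 355 to 814 (8.57 ± 0.63, n = 9), which was 2.10 ± 0.40 above the same SBI day 31 samples on the deposited scale and 2.19 ± 0.37 on the centred scale. The saline and SKM contrasts share those injury samples.

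By day 7 after delayed injection the saline group ran from 44.2 through a median of 67.6 to 97.5 (mean log2 6.03 ± 0.42, n = 10). Its highest sample lay below the lowest of delayed saline at day 3 on either scale, but the gap between them was smaller after centring. The mean panel median fell as well, from 10.14 at day 3 to 9.51 at day 7. The centred means of Adam12 were -1.74 and -3.48. Both groups stand in contrasts that chose the gene, and this fall was not tested. Against SBI day 35 the delayed saline group at day 7 was -0.44 ± 0.39 on the deposited scale, where 54.5% of the genes passed the test. On the centred scale it was 0.24 ± 0.36, where the sign is turned. The SKM group at day 7 ran from 31.4 through 114 to 462 (6.93 ± 1.09, n = 9). It was 0.46 ± 0.40 above SBI day 35 on the deposited scale and 0.88 ± 0.37 on the centred scale. At week 8 the saline samples were 19.2, 21.0, 24.1, 26.2 and 34.4 (4.67 ± 0.31, n = 5) and the SKM samples ran from 15.4 through 23.2 to 32.0 (4.62 ± 0.36, n = 6). These differed from SBI day 84 by 0.18 ± 0.46 and 0.13 ± 0.44, and all 3 groups overlapped, at counts between 15 and 37.

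**Figure D2:**
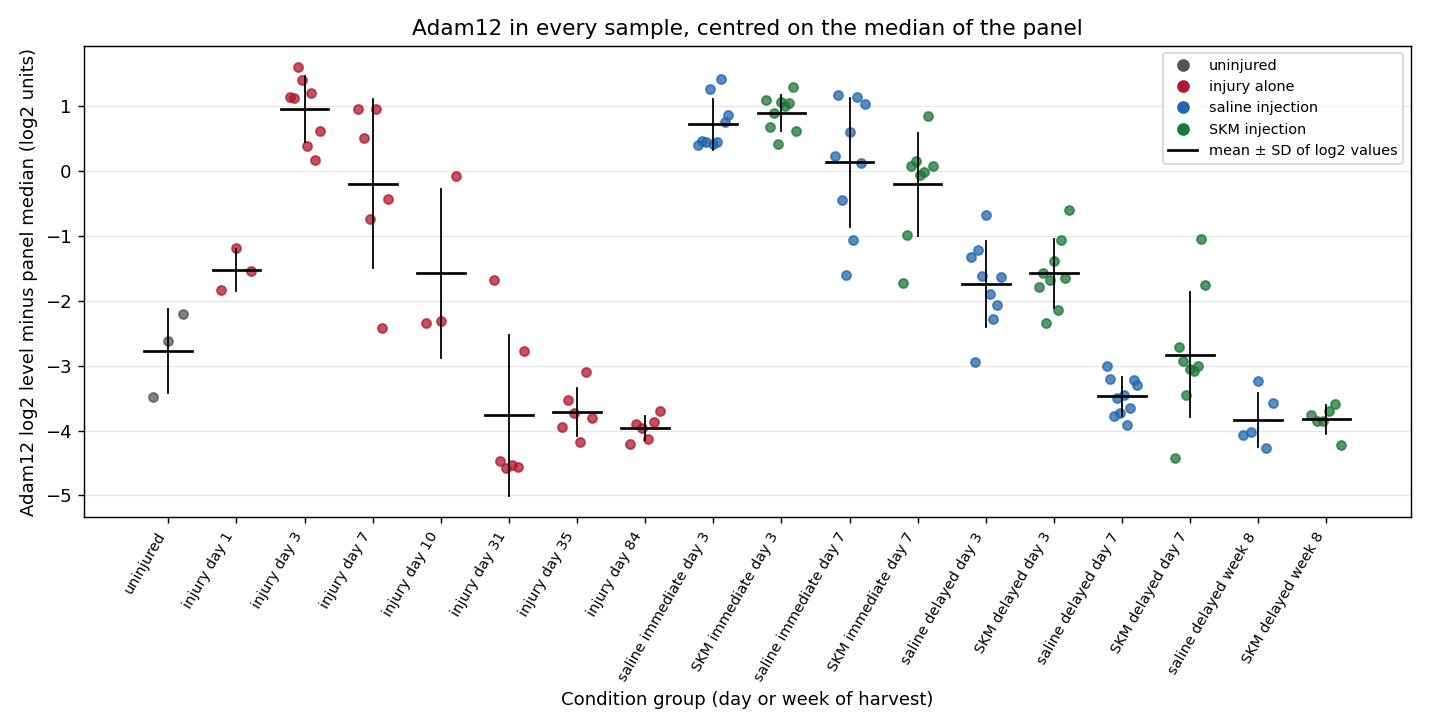
Adam12 log2 level minus the median of the panel in the same sample (log2 units) for each of the 124 samples; points are samples, horizontal bars group means and vertical bars SDs. On this scale the late groups lie close to SBI days 31 and 35, with means between -3.96 and -3.71, and SBI day 3 has a mean of 0.95.

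Ranked by mean on the deposited scale, the 18 levels ran from immediate SKM day 3 (11.75), immediate saline day 3 (11.67) and SBI day 3 (11.28) through immediate saline day 7, immediate SKM day 7 and SBI day 7 (10.62, 10.15 and 10.01) to SBI day 10, delayed SKM day 3, SBI day 1 and delayed saline day 3 (8.86, 8.57, 8.46 and 8.40). Uninjured muscle stood at rank 11 of 18 (7.46). Below it came delayed SKM day 7 (6.93), SBI day 35 and SBI day 31 (both 6.47), delayed saline day 7 (6.03), delayed saline week 8 (4.67), delayed SKM week 8 (4.62) and SBI day 84 (4.49). Of the 17 gaps between neighbours, 15 were smaller than the larger SD of the pair. The exceptions were the gap of 0.95 from delayed saline day 3 to uninjured muscle and the gap of 1.36 from delayed saline day 7 to delayed saline week 8. Samples of neighbours overlapped in 16 of the 17 pairs, all but the last-named. After centring, SBI day 3 came first (0.95), uninjured muscle kept rank 11 and SBI day 84 came last (-3.96). There, too, 15 of 17 gaps were under the larger SD. The exceptions were the gap of 1.32 from immediate SKM day 7 to SBI day 1 and that of 1.03 from delayed saline day 3 to uninjured muscle. Samples of all 17 neighbouring pairs overlapped on that scale.

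The comparison of SKM with saline asks whether the hydrogel changes the level beyond the injection itself. All groups entered 1 limma fit, with Benjamini-Hochberg adjustment over the 134 genes. The delayed saline samples at days 3 and 7 and week 8 also stand in the contrast that chose the gene. After immediate injection Adam12 differed by 0.08 ± 0.36 at day 3 (SKM minus saline, log2, SE; 95% interval -0.63 to 0.79; limma adjusted p = 0.996) and by -0.47 ± 0.37 at day 7 (-1.20 to 0.26; limma adjusted p = 0.976). No gene of the panel passed at either day (0%), while 8 and 7 genes had an unadjusted p under 0.05. After delayed injection the difference was 0.17 ± 0.36 at day 3 (-0.54 to 0.87; limma adjusted p = 0.687), where 9 of 134 genes (6.72%) passed, all higher with SKM. At week 8 it was -0.05 ± 0.46 (-0.96 to 0.86; limma adjusted p = 0.998), with no gene past the threshold (0%) and 2 under an unadjusted p of 0.05. The intervals are wide, and their SEs rest on a spread pooled over all 18 groups. The SDs of Adam12 in these groups ran from 0.10 (SBI day 84) to 1.43 (SBI day 7). The compared saline and SKM groups had SDs of 0.30 and 0.26 at immediate day 3 and 0.31 and 0.36 at week 8. There the intervals are wider than those samples alone would give. At immediate day 7, with SDs of 1.01 and 0.81, they are narrower. None of these 4 comparisons shows that the levels are alike.

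The largest of the 5 differences was at delayed day 7. The 10 saline values were 44.2, 46.1, 46.1, 51.9, 62.1, 73.1, 80.2, 81.5, 87.0 and 97.5, and the 9 SKM values were 31.4, 74.0, 102, 113, 114, 116, 118, 285 and 462. Of the SKM samples, 7 lay above every saline sample and 1 lay below every saline sample. The mean difference was 0.90 ± 0.35 on the deposited scale (0.21 to 1.59; 1.87-fold), with a limma adjusted p of 0.0542, just outside the threshold of 0.05 that 20 of 134 genes (14.9%) passed. An exact two-sided permutation test of the samples gave 0.0233, and 0.0582 after adjustment over the 10 comparisons tested that way. Centred on the panel median, the difference was 0.64 ± 0.32 (0.01 to 1.28; limma adjusted p = 0.152), where 10 genes (7.46%) passed. The authors' deposited table gives a log2 fold change of 1.242 for this comparison, taken between linear means. Without SKM replicate 8, the highest sample, the difference was 0.66 (limma adjusted p = 0.229). Without SKM replicate 1, the lowest sample, it was 1.14 (limma adjusted p = 0.0116). It also passed without saline replicate 1 or 10 or SKM replicate 4, so the result stands on either side of the threshold according to the sample left out.

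The difference between the SKM effects after delayed and immediate injection was tested directly. At day 3 it was 0.09 ± 0.51 (-0.91 to 1.09; limma adjusted p = 0.882), with no gene passing (0%) and 33 under an unadjusted p of 0.05. At day 7 it was 1.37 ± 0.51 (0.36 to 2.37; limma adjusted p = 0.0776), against 2 of 134 genes (1.49%) that passed, and 0.98 ± 0.47 on the centred scale (limma adjusted p = 0.193). It did not pass on either scale. Array weights, which count less variable samples more, put the delayed day 7 difference at 0.70 (limma adjusted p = 0.0146) and this interaction at 1.11 (limma adjusted p = 0.0124).

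**Figure D3:**
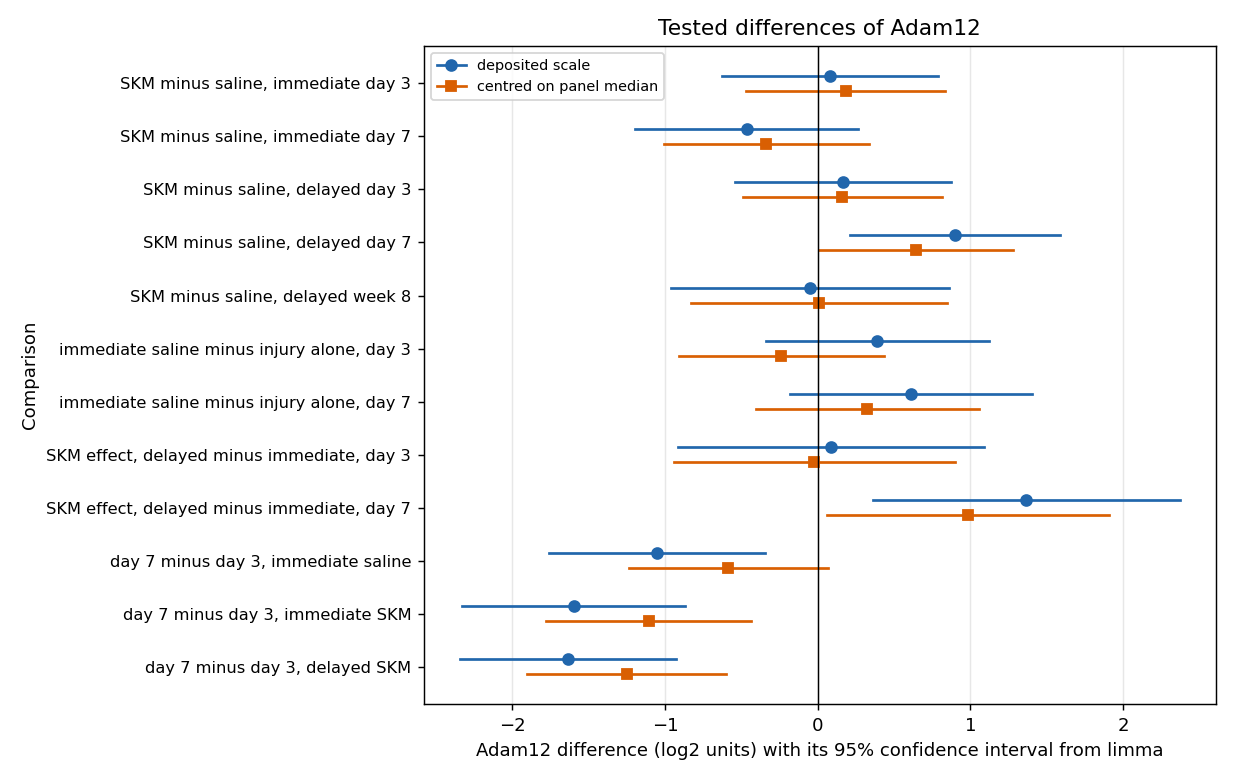
Adam12 differences in the 12 tested comparisons (log2 units, horizontal axis), on the deposited scale (circles) and centred on the panel median (squares), with 95% confidence intervals from limma. The delayed day 7 difference of SKM from saline lies at 0.90 and 0.64 on these scales, and the 3 differences of day 7 from day 3 lie below 0.

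Other genes changed at delayed day 7 where Adam12 did not pass; the counts below stand beside 14.9% of all genes that passed on the deposited scale and 7.46% on the centred scale. Of 4 macrophage markers, 2 rose with SKM on both scales: Adgre1 by 2.10 (limma adjusted p = 0.00877) and Ccr2, a receptor that brings monocytes into tissue, by 1.16 (limma adjusted p = 0.0118). Of 11 matrix proteases and their inhibitors, 5 rose on the deposited scale and 1 on the centred scale. They included Mmp12, the macrophage elastase, at 3.69, Timp1, an inhibitor of metalloproteases, at 1.08, and Mmp14, a membrane-bound metalloprotease, at 0.99 (limma adjusted p between 0.00877 and 0.0358). Of 8 genes of fibroblasts and transforming growth factor beta signalling, 1 rose, Tgfb1, which encodes the ligand itself, by 1.03 (limma adjusted p = 0.00877). That count is near the 14.9% of all genes, and nothing is read from it for the list. None of 6 matrix structure genes and none of 12 adult fibre genes passed. Tnc, the matrix glycoprotein tenascin-C, differed by 0.89 ± 0.46 (limma adjusted p = 0.158). The median difference of all 134 genes was 0.24 on the deposited scale and -0.01 on the centred scale, beside 1.23 and 0.98 for the macrophage markers, 0.48 and 0.23 for the proteases and 0.77 and 0.52 for matrix structure.

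In the SKM group at delayed day 7, the samples high in Adam12 were also high in these genes. Replicate 8, with Adam12 at 462, had Adgre1 at 9270, Tnc at 1207 and Acta1 at 94445. Replicate 9, with Adam12 at 285, had Adgre1 at 3983, Tnc at 665 and Acta1 at 93546. In the other 7 SKM samples Adgre1 lay between 241 and 2369, Tnc between 123 and 276, and Acta1 between 143870 and 262320. In the saline samples Adgre1 lay between 166 and 441, Tnc between 65.1 and 370, and Acta1 between 142470 and 305820. The 2 SKM samples were thus the highest in Adgre1 and Tnc and the lowest in Acta1 of all 19. The summed macrophage markers ran from 394 to 1197 with saline and from 590 to 10546 with SKM, and the summed adult fibre genes from 540000 to 1107200 and from 412700 to 939810. The part of these cells in the Adam12 difference was not tested.

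**Figure D4:**
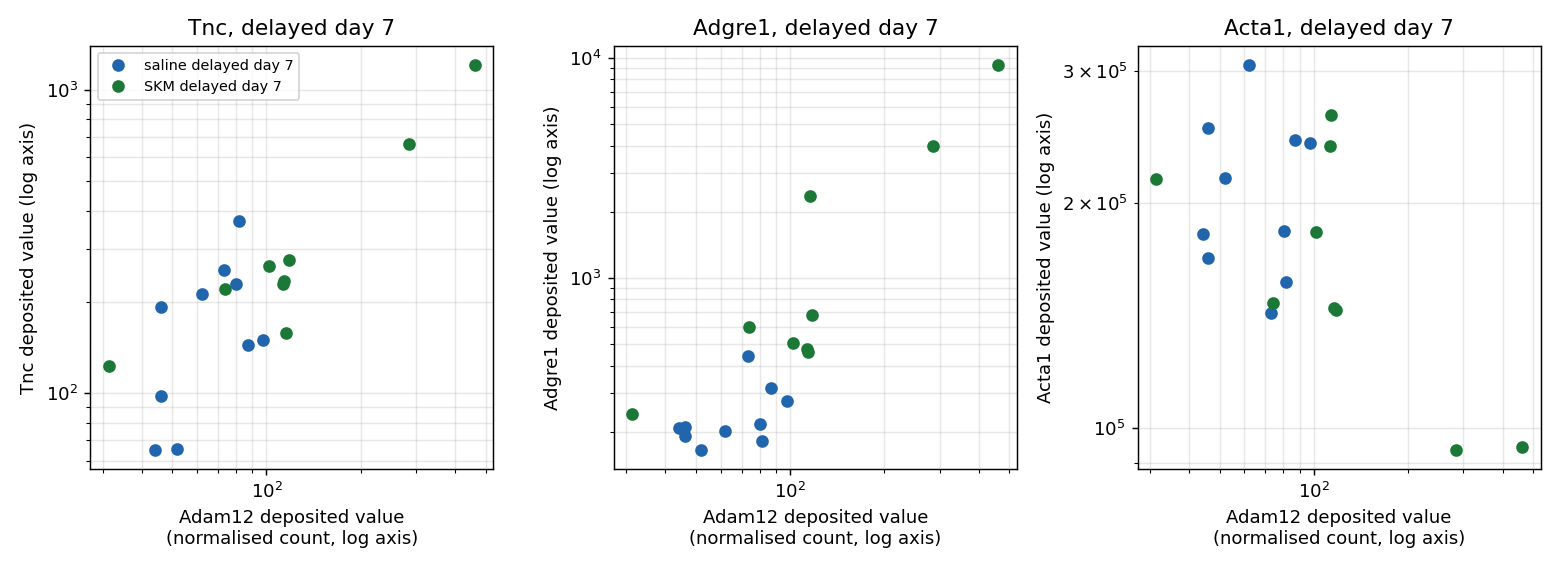
Deposited values of Tnc, Adgre1 and Acta1 (vertical, logarithmic axes) against Adam12 (horizontal, logarithmic axis) in the 10 saline and 9 SKM samples at delayed day 7; each point is a sample. The SKM samples at Adam12 values of 285 and 462 have the highest Tnc and Adgre1 and the lowest Acta1.

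Immediate saline was set against injury alone to show the effect of the injection. The injury samples also stand in the contrast that chose the gene. At day 3 Adam12 differed by 0.39 ± 0.37 (saline minus injury, -0.34 to 1.12; limma adjusted p = 0.372) on the deposited scale, where 60 of 134 genes (44.8%) passed, all higher with saline. Centring turned the sign, to -0.24 ± 0.34 (limma adjusted p = 0.865), and 1 gene (0.746%) passed. At day 7 the difference was 0.61 ± 0.40 (-0.18 to 1.40; limma adjusted p = 0.421), where 4 genes (2.99%) passed, and 0.33 ± 0.37 on the centred scale (limma adjusted p = 0.978). Without the low SBI day 7 sample described above, the day 7 difference was 0.15.

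Adam12 fell between day 3 and day 7 after each injection that was tested, though not on both scales in each. After immediate saline it fell by 1.05 ± 0.36 on the deposited scale (limma adjusted p = 0.00864; 7 of 9 day 7 samples below the day 3 median), where 53 of 134 genes (39.6%) passed as lower. Centred, the difference was -0.59 ± 0.33 (limma adjusted p = 0.107) and did not pass, while 22.4% of genes passed as lower. After immediate SKM it fell by 1.60 ± 0.37 (limma adjusted p = 0.000216; all 8 day 7 samples below the day 3 median), where 38.8% of genes passed as lower. Centred, it fell by 1.11 ± 0.34 (limma adjusted p = 0.00423), where 17.9% did. After delayed SKM it fell by 1.64 ± 0.36 (limma adjusted p = 0.000553; 8 of 9 day 7 samples below the day 3 median), where 65 of 134 genes (48.5%) passed, all lower. Centred, it fell by 1.25 ± 0.33 (limma adjusted p = 0.0314), and Adam12 was the 1 gene of 134 (0.746%) that passed there.

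Beside the fall after delayed SKM, the median over all genes was -0.41 on the deposited scale and -0.02 on the centred scale. Of 6 matrix structure genes, 5 fell on the deposited scale, where 48.5% of all genes did, with Tnc at -1.28, Col3a1 at -1.11 and Col1a1 at -1.08; the last 2 encode fibrillar collagens. The list's median was -1.06. Its members Ccn2 and Dcn were matched by their ratios less surely than the rest, though both names stand in alphabetical place among the rows. Of 4 macrophage markers 2 fell, Adgre1 by 1.27 and Ccr2 by 1.09 (limma adjusted p = 0.0435 and 0.00756). That count is near the 48.5% of all genes, and nothing is read from it for the macrophage markers. None of 12 adult fibre genes passed. After centring no member of any of these lists passed, and nothing is read from that, since Adam12 was the 1 gene of 134 (0.746%) that did. The centred medians were -0.68 for matrix structure and -0.80 for the macrophage markers.

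After immediate injection the adult fibre genes went the other way from Adam12. Between day 3 and day 7, 9 of 12 rose with saline and 8 of 12 with SKM on the deposited scale, where 16.4% and 11.9% of all genes passed as higher. All 12 rose with either injection once the panel median was subtracted, where the shares were 39.6% and 32.8%. Myh1, a fast myosin heavy chain, rose by 2.34 with saline and 1.61 with SKM. Of 4 macrophage markers 3 fell with either injection on the deposited scale, among them Nos2, the inducible nitric oxide synthase (-4.65 with saline and -4.03 with SKM), and Arg1, an arginase of activated macrophages (-3.37 and -2.09); of all genes, 39.6% and 38.8% passed as lower. Centred, 3 of 4 fell with saline and 2 of 4 with SKM, where the shares were 22.4% and 17.9%. Their part in the fall of Adam12 was not tested.

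The panel held 6 of 21 listed partners of ADAM12, comprising proteins it binds, growth factors freed by its cutting and their receptors. They did not move as a block with Adam12. At SBI day 3, where 38.8% of all genes passed as higher than uninjured muscle on either scale, 4 of the 6 did so on both scales: Erbb2, a receptor that pairs with those for epidermal growth factors, at 1.55 ± 0.43, Igf1, insulin-like growth factor, at 1.27 ± 0.32, its receptor Igf1r at 0.54 ± 0.18, and Itgb1, the integrin beta chain, at 0.44 ± 0.14. Actn2, the alpha-actinin of the Z-disc, fell by 1.90 ± 0.42 (35.1% of genes passed as lower, 37.3% centred), and Tgfbr1, a receptor for transforming growth factor beta, did not pass at 0.32 ± 0.21. The list's median was 0.49, beside 0.02 for all genes and 3.83 for Adam12.

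In none of the 5 comparisons of SKM with saline did a partner pass on either scale. After immediate injection and at the last delayed harvest no gene of the panel passed on either scale (0%), so those comparisons say nothing of the partners. The shares of all genes were 6.72% (11.2% centred) at delayed day 3 and 14.9% (7.46% centred) at delayed day 7. With such shares and only 6 partners, nothing is read from the absence of passing partners. At delayed day 7 their differences ran from -0.16 for Actn2 to 0.48 for Igf1, with a median of 0.15 beside 0.24 for all genes. Between day 3 and day 7 after delayed SKM 4 of 6 fell on the deposited scale, where 48.5% of all genes did: Igf1 by 0.54, Itgb1 by 0.48, Tgfbr1 by 0.44 and Igf1r by 0.43. None passed on the centred scale, where the 0.746% of all genes that did was Adam12 itself. Actn2 and Erbb2 differed by -0.14 and -0.48 without passing. After immediate injection the same 4 genes fell on the deposited scale with saline (Igf1 by 0.71, Tgfbr1 by 0.64, Igf1r by 0.44 and Itgb1 by 0.41) and with SKM (Tgfbr1 by 0.85, Igf1 by 0.74, Itgb1 by 0.69 and Igf1r by 0.41), where 39.6% and 38.8% of all genes passed as lower. After centring none of the 6 fell with saline and 1, Tgfbr1, fell with SKM, by 0.35 (limma adjusted p = 0.0234), where the shares of all genes were 22.4% and 17.9%. Actn2 rose on both scales, by 1.61 with saline and 1.05 with SKM on the deposited scale. Against SBI day 31, no partner passed after delayed saline at day 3, where only 3 of 134 genes (2.24%) did on the deposited scale. The differences of the partners ran from -0.71 for Erbb2 to -0.06 for Actn2, and their median was -0.25.

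Likeness of pattern was taken as Pearson's r with Adam12 over the 18 group means, as a description. The group means share their samples, their factor and the panel. On the centred scale the 5 genes most like Adam12 were Tnc (r = 0.984), Mmp9, a gelatinase (0.947), Ccn4, a matricellular protein of the CCN family (0.932), Musk, the receptor kinase of the neuromuscular junction (0.911), and Has1, a hyaluronan synthase (0.897). The median over the other 133 genes was 0.116. On the deposited scale, where the median was 0.782, they were Tnc (0.992), Mmp9 (0.965), Has1 (0.965), Tgfb1 (0.961) and Ccn4 (0.961). The lowest values on the centred scale belonged to Nol3, a repressor of cell death that muscle expresses (-0.955), and to Eif4g1 and Eif4b, which take part in the start of translation (both -0.952). On the deposited scale these 3 stood at 0.409, 0.467 and 0.347. The likeness thus depended on the scale for these 3 genes more than for Tnc and Mmp9. Other genes opposed Adam12 on both scales. The lowest on the deposited scale were Acta1 (-0.748, and -0.938 centred), Tcap (-0.633 and -0.929) and Mylk2 (-0.597 and -0.915).

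Beside Adam12, the size of the Tnc differences was near in some groups and apart in others. Its level was above uninjured muscle by 3.96 at SBI day 3, 2.19 at day 7 and 1.13 at day 10 on the centred scale, beside 3.73, 2.58 and 1.19 for Adam12. At day 1 it stood at 1.86 beside 1.25. After delayed saline it was 1.20 at day 3 and -0.17 at day 7, beside 1.03 and -0.70, and after delayed SKM 1.36 and 0.47, beside 1.19 and -0.06. It lay nearer to uninjured muscle than Adam12 at SBI day 31 (-0.27 beside -0.99), at delayed saline week 8 (-0.21 beside -1.06) and at immediate SKM day 7 (2.07 beside 2.57). Within groups, over the 124 samples after removal of the group means, Tnc again had the highest r with Adam12 of the 133 genes (0.748, centred), followed by Tgfb1 (0.728) and Mmp9 (0.698). Musk and Has1, which were alike over group means, reached 0.375 and 0.229 there, at ranks 41 and 58. The median over the other genes within groups was 0.182. Without the 3 late groups, r over the remaining 15 group means was 0.981 for Tnc and 0.952 for Mmp9.

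**Figure D5:**
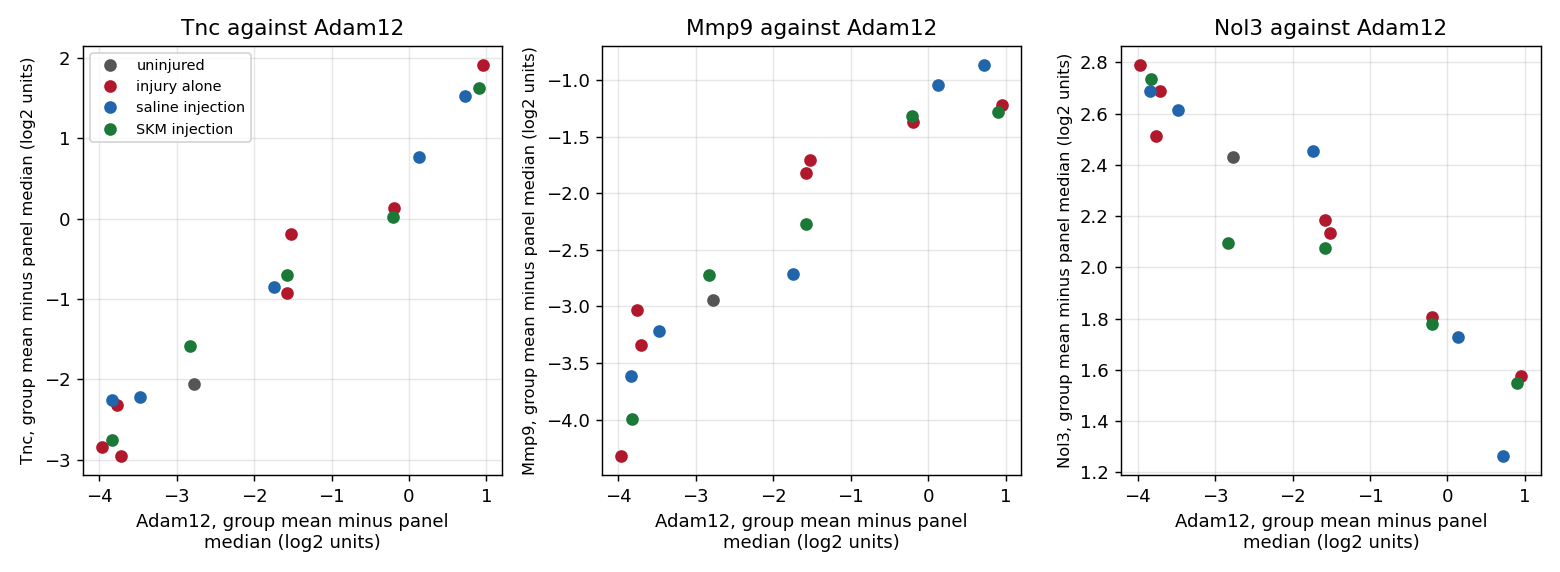
Group means of Tnc, Mmp9 and Nol3 (vertical) against Adam12 (horizontal), each minus the median of the panel (log2 units), for the 18 groups; each point is a group, coloured by treatment. Tnc and Mmp9 are higher where Adam12 is higher (r = 0.984 and 0.947) and Nol3 is lower (-0.955).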

How the data were processed

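Total RNA was hybridised to capture and reporter probes, per the labels' protocols. As deposited, the values are a normalised linear signal, scaled by 1 factor per sample; the scaling method is not given in the sources used here. All 16829 values above the floor of 0.1 were whole multiples of that factor (within 0.05 of a count), which gave the counts. Rows carry no names. They were named by matching log2 ratios of group means to the authors' deposited log2 fold changes: 131 of 134 probes matched best both ways, not App, Ccn2 or Dcn. The names so given ran in alphabetical order in all 133 pairs of neighbouring rows, those of App, Ccn2 and Dcn included. In the 5 comparisons used for the match Adam12 differed from the authors' values by a median of 0.0035 (next best name 0.21). In the other 3, which are among the contrasts that chose the gene, it differed by 0.095 (SBI day 3), 0.28 (SBI day 7) and 0.165 (delayed saline day 3). These ratios used all 127 deposited samples, so the identical pairs at SBI days 3 and 7 were not merged in them.

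Values were taken as log2(value + 1), which understates changes of low genes, deposited or centred on each sample's panel median. Limma 3.58.1 in R 4.3.3 fitted all 18 groups together, adjusted by Benjamini-Hochberg, with a threshold of 0.05, and was tested on simulated data; Python 3.11.15, pandas 2.3.3 and scipy 1.17.1 did the rest. The precision is set by the number of samples. Adam12 counts ran from 15 to 4720. The gene and the gene lists were chosen with earlier results of these data known. Named genes were Adam12, the 5 most like it and the 3 least like it on each scale, and each partner on the panel. Of each other list, up to 3 passing members with the largest difference were named.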

Additional observations from a re-analysis of the deposited data

How the results depend on the processing

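Beside single samples left out, 8 other settings were tried (centring, a pseudocount of 10, identical samples kept separate, a minimum mean value of 20, array weights, only the compared groups, a replicate block, and exact permutation tests), with voom weights on recovered counts added after seeing the data. A count model was planned and not run, because the deposited values are not counts. Of 145 values from these settings, 133 kept their direction and their side of the threshold or, for contrasts without a test, moved by less than 1 SD between samples. At delayed day 7 the difference of SKM from saline passed with array weights (0.70) and by the unadjusted exact permutation test (0.90, p = 0.0233), and the interaction at day 7 passed with array weights (1.11). On the centred scale, the fall after immediate saline no longer passed (-0.59), SBI day 84 moved to -1.19 from -2.96, and delayed saline day 7 against SBI day 35 reversed to 0.24; the scaling itself makes that difference, since the panel medians differ by -0.47, -1.77 and -0.68. Another 6 values turned sign, none past the threshold on either side: centring put immediate saline against injury at day 3 at -0.24, the day 3 interaction at -0.021 and SKM against saline at week 8 at 0.00899; array weights put SKM against saline at immediate day 3 at -0.0041 and immediate saline against injury at day 7 at -0.029; the replicate block put week 8 at 0.065. Beyond centring, the cause was not tested.

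Single samples were left out on the deposited scale only. Of the differences that did not pass, 3 then took either sign: SKM against saline at delayed day 3 (-0.026 to 0.323) and week 8 (-0.136 to 0.067) and the day 3 interaction (-0.105 to 0.243). The delayed day 7 difference ran from 0.66 to 1.14 (limma adjusted p from 0.0116 to 0.229) and passed without saline replicate 1 or 10 or SKM replicate 1 or 4. The day 7 interaction ran from 1.12 to 1.60 (limma adjusted p from 0.0269 to 0.190) and passed without immediate saline replicate 4 or 6, immediate SKM replicate 7 or delayed SKM replicate 1. The 3 falls from day 3 to day 7 passed on the deposited scale whichever sample was left out, with highest limma adjusted p of 0.0416 (immediate saline), 0.00233 (immediate SKM) and 0.00544 (delayed SKM). Whether the centred falls hold without single samples was not tried.

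Groups share replicate numbers in the labels. Same-numbered samples deviated together in some pairs and not in others, and in no comparison did every pair correlate above 0.1. The median r of the pairs ran from -0.206 (day 7 minus day 3, immediate saline) to 0.137 (immediate saline minus injury, day 3). At delayed day 7, 5 of 9 pairs were above 0.1, the highest at 0.599. These values cannot settle whether same-numbered samples were paired. With the replicate block, the delayed day 7 difference was 0.94 (limma adjusted p = 0.0909) and the interaction 1.29 (0.135), and the block changed no call among the 12 tested comparisons. Depth limits the late groups, where Adam12 rests on 15 to 37 counts per sample.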
